A study of Mus musculus with 6 samples.

Results

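The collagen genes of the mouse were compared between WT primary osteoblasts and primary osteoblasts of mice with a conditional triple knockout of the Tet genes (TCKO). The family was taken as every gene of the deposited count table whose symbol has the form Col, a type number, the letter a and a chain number. This gave 44 genes of 55471, and 32 of them passed the filter on low counts that left 13826 genes for testing. The 44 genes were sorted into 8 fibrillar, 7 cartilage, 8 network, 6 FACIT (fibril-associated collagens with interrupted helices) and 15 other collagens. The cartilage class holds type II and XI chains, which are fibrillar by structure, type IX chains, which are FACIT, and type X. The fibrillar and FACIT counts leave these chains out.

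Poly(A) RNA was sequenced from osteoblasts, the bone-forming cells, which had been isolated from the parietal bones of 3-day-old C57BL/6 mice and cultured for 3 days. There were 3 libraries per genotype. The libraries labelled WT came from wild-type mice, and the labels do not say whether these animals carried floxed alleles without Cre. The libraries labelled TCKO came from mice with Prx1-Cre, a recombinase driven by a promoter that is active in the mesenchyme of the limb buds and part of the skull, and with homozygous floxed alleles of Tet1 (Tet1fl/fl), Tet2 (Tet2fl/fl) and Tet3 (Tet3fl/fl). Cells of the preparation that never expressed Cre would keep these genes. The TET enzymes oxidise methylated cytosine in DNA, and the comparison asks which collagen transcripts differ when the cells that express Cre have lost them.

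Collagens are the main structural proteins of the extracellular matrix. Each molecule is a helix of 3 chains, either identical or drawn from several genes, and the chains combine in fixed sets. Osteoblasts lay down a matrix dominated by type I collagen, made of Col1a1 and Col1a2 chains, which is later mineralised. Chondrocytes instead make type II collagen fibrils that carry types IX and XI, and hypertrophic chondrocytes make type X. Types IV and VIII form sheet-like networks in basement membranes and around vessels and eye structures, type VI forms beaded microfibrils, and type VII anchors epithelium to the tissue below it.

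The libraries held between 8019999 and 10177214 counts, so that 3 counts, the upper limit that a count of 0 allows, corresponded to 0.299 to 0.372 CPM (counts scaled to a library of 1000000 with TMM factors). This limit covers counting error only. Summed over the whole gene, Tet1 was lower in TCKO (log2 fold change -0.97), Tet3 was higher (0.51) and Tet2 was not called (-0.14, adjusted p = 0.545, edgeR's quasi-likelihood test, Benjamini-Hochberg over all tested genes). Counts over a whole gene include exons outside a floxed segment, so they do not check the deletion. Replicates 1 and 2 of each genotype were much closer to each other than to replicate 3. A coefficient of variation between paired libraries, beyond counting noise, was fitted as a single value shared by all genes. It was 3% for replicates 1 and 2 in WT and 3.62% in TCKO, against 16.4% to 18.4% for pairs with replicate 3. Mitochondrial transcripts took 2.22% and 2.47% of the counts in replicate 3 of WT and TCKO and 1.11% to 1.24% elsewhere. TCKO replicate 3 held 4583 counts of Xist and 0 of Ddx3y, while the other 5 libraries held at most 4 and at least 675. Xist marks female cells and Ddx3y, on the Y chromosome, male cells, so TCKO replicate 3 was female and the other 5 libraries male. TCKO replicate 3 therefore shares no animal with the other TCKO libraries, and in replicate 3 genotype and sex cannot be told apart. The labels do not say whether the remaining libraries came from separate animals or cultures. The p-values thus measure the spread between libraries, which may be technical. Of 8 osteoblast markers, Bglap and Dmp1 (genes of mature osteoblasts and osteocytes) had 3 counts or fewer in every library. Markers of other cell types were read as lists, and their part in the collagen results was not tested.

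Sequences upstream of the transcription start are shown first for 5 collagens that differed over 2-fold between the genotypes, because CG dinucleotides (CpG) are where most methylation of mouse DNA lies. They were chosen to set members that were lower in TCKO with no CpG, with an intermediate number and with a high number beside both members that were over 2-fold higher. All come from the RefSeq promoter table (build GRCm38.p6), in which 35 of the 44 collagens were found. Col1a1, Col2a1, Col4a3, Col5a2, Col9a3, Col12a1, Col14a1, Col22a1 and Col26a1 had no entry. Bases are 5′ to 3′ on the strand of the gene, and capitals mark CpG dinucleotides.
Col9a1, lower in TCKO, chr1:24177360-24177609, plus strand: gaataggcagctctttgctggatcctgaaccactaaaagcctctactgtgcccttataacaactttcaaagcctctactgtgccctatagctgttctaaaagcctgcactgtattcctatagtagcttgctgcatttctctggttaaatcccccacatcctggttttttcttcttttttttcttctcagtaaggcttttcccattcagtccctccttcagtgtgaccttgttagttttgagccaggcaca
Col11a2, lower in TCKO, chr17:34038888-34039137, plus strand: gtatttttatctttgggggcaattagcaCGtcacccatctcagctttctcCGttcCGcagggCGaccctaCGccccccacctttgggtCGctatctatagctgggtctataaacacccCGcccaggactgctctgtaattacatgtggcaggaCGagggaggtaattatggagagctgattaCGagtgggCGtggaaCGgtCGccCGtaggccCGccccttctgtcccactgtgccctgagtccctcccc
Col8a2, lower in TCKO, chr4:126286544-126286792, plus strand: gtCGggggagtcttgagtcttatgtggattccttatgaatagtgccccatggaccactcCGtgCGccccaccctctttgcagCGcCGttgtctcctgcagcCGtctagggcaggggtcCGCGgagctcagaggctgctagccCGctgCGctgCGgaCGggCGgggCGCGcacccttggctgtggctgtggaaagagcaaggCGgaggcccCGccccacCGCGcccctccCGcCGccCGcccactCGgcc
Col5a3, higher in TCKO, chr9:20815068-20815317, minus strand: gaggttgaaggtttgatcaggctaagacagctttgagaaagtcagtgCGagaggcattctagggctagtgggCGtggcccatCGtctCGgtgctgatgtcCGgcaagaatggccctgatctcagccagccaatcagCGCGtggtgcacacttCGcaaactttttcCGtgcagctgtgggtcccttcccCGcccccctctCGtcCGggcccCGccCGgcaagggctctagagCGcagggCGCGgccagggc
Col7a1, higher in TCKO, chr9:108953336-108953585, plus strand: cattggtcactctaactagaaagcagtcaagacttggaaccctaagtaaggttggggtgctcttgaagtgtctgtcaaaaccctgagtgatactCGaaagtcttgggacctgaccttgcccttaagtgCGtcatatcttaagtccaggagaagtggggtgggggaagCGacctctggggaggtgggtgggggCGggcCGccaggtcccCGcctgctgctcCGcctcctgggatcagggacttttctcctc

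The printed stretches held 0 CpG in Col9a1, 14 in Col11a2, 23 in Col8a2, 17 in Col5a3 and 7 in Col7a1. Over the full promoter windows, which run from 250 bases before to 50 bases after the start, the 35 collagens had a median of 12 CpG. The start is that of the promoter table and not always the 5′ end of the counted gene. It lay 299 bases from that end in Col11a2, 804 in Col1a2, 1408 in Col27a1 and 49344 in Col25a1. The median over all 32851 windows of the table was 7. The 9 collagens called lower that had a window ran from 0 CpG (Col9a1) to 34 (Col5a1), with a median of 10. The 3 called higher had 12 (Col7a1), 20 (Col5a3) and 37 (Col4a1), and the 12 tested without a call had a median of 12. The ranges of members called lower and higher overlapped. TGTGGT, the core bound by RUNX factors, was found on either strand in 2 of the 35 windows (5.71%) against 16.8% of all windows, those of Col8a1 and Col17a1. ACAAAG, a core bound by SOX factors, was found on either strand in 5 of 35 (14.3%) against 18.7%. Col10a1 held it among the 5 cartilage collagens with a window, which do not include Col2a1 and Col9a3. Only TGTGGT and ACAAAG were searched, and other forms of the RUNX and SOX cores were not. No methylation was measured in the table analysed here.

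As a family, the collagens took a smaller share of the counts in every TCKO library than in any WT library. The 44 genes held 5.78%, 5.64% and 5.40% of all counts in WT (replicates 1 to 3 in order) and 3.84%, 3.86% and 2.75% in TCKO. The means were 5.61% ± 0.191 and 3.48% ± 0.639 (SD, n = 3), and no TCKO library reached the WT range. An exact two-sided permutation test gave p = 0.1, the smallest value that 3 against 3 libraries allow, and 0.114 after adjustment over the 8 shares compared. Col1a1 and Col1a2 together held 3.07% ± 0.109 of all counts in WT and 1.96% ± 0.456 in TCKO, and the remaining genes held 2.53% ± 0.0835 and 1.53% ± 0.183. The cartilage collagens held 0.745% ± 0.0925 in WT and 0.0977% ± 0.0157 in TCKO. The 15 other collagens held 0.310% to 0.325% in WT and 0.220% to 0.333% in TCKO, ranges that overlap (p = 1, exact permutation test).

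**Figure D1:**
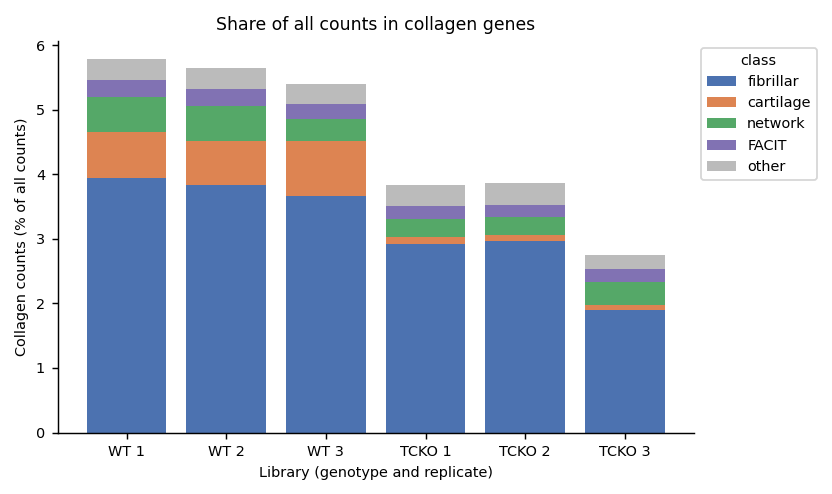
Share of all counts (percent, from 0) that fell in collagen genes in each of the 6 libraries, with bars stacked by class. The 3 WT bars reach 5.40% to 5.78% and the 3 TCKO bars 2.75% to 3.86%.

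Of the 32 tested collagens, 13 were lower in TCKO and 3 were higher at an adjusted p under 0.05, and 16 were not called. The background was 8.63% of all tested genes called lower and 9.08% called higher. Over 2-fold, 9 were lower and 2 higher, beside 3.19% and 3.16% of all tested genes. The median log2 fold change of the tested collagens was -0.59, beside 0.00 over all tested genes. CPM did not overlap between the genotypes for 17 collagens that were lower in TCKO and for 6 that were higher, against a background of 18.9% and 19.5%. The members called lower included all 7 cartilage collagens, 2 fibrillar, 2 network, 1 FACIT and 1 microfibril collagen. With the replicate number as a block, 16 were lower and 5 higher, beside 11.5% and 12.0% of all tested genes. The added calls were Col1a2, Col5a2, Col18a1, Col4a2 and Col4a6. None of these was called when the block was fitted with replicates 1 and 2 summed. With replicates 1 and 2 of each genotype summed to a single library, 6 were lower and 0 higher, beside 1.22% and 1.57% of all tested genes. In that fit 3 collagens were higher at an unadjusted p under 0.05 (edgeR). With the block added to it, 7 were lower and 2 higher (Col5a3 and Col7a1), beside 4.09% and 4.22%. DESeq2 on all libraries called 16 lower and 5 higher, beside 8.54% and 9.11%. The remaining 12 collagens were not tested, at no more than 29 counts in any library, and 3 of them (Col6a4, Col6a5 and Col13a1) had 3 counts or fewer in every library. When they were tested without the filter, 0 of the 12 were called in edgeR (2 at an unadjusted p under 0.05).

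**Figure D2:**
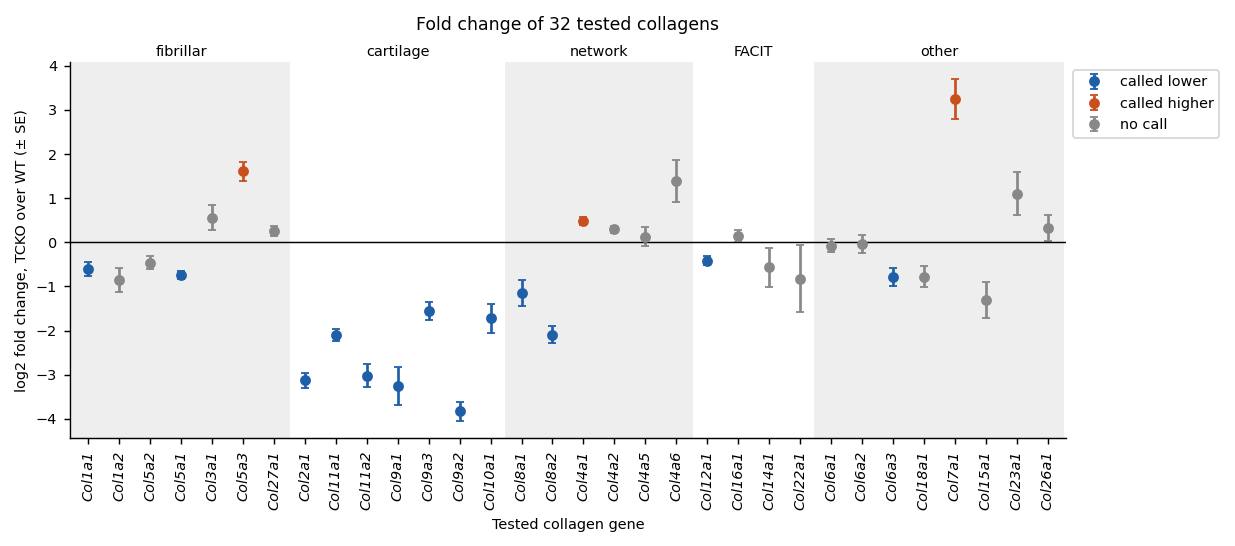
Log2 fold change of TCKO over WT for the 32 tested collagens, ordered by class and then by WT level. Points are edgeR estimates, bars are ± 1 SE and colours give the call at an adjusted p under 0.05. The 7 cartilage collagens lie between -3.83 and -1.55, and Col7a1 at 3.24 is the highest point.

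The fibrillar collagens make the banded fibres of bone, skin and tendon. Their major chains were the most abundant collagens of these cells. Outside the cartilage class, 2 of 7 tested members were lower in TCKO and 1 was higher, beside 8.63% and 9.08% of all tested genes. The other 4 were not called. Levels between genes are compared here as RPKM (CPM per 1000 bases of exon). Col1a1, the alpha 1 chain of type I collagen, stood at 3394 ± 130 RPKM in WT (SD, n = 3), followed by Col1a2 at 706 ± 38.4 and Col2a1 at 696 ± 103, which did not differ beyond their spread. Col8a1 (385 ± 116), Col5a2 (362 ± 19.7), Col6a1 (310 ± 7.52) and Col5a1 (288 ± 2.56) came next in WT, and Col8a1 did not differ from the genes below it beyond its spread. In TCKO the order was Col1a1 (2217 ± 428), Col1a2 (391 ± 148), Col6a1 (293 ± 62.9), Col5a2 (263 ± 49.6) and Col3a1 (230 ± 90.9). Apart from Col1a1, the ranges of these TCKO levels overlap their neighbours. Col2a1 stood at 79.6 ± 13.6 RPKM there. Exon lengths of the deposited table join all transcripts of a gene. With the length of a coding transcript instead, the order of the 7 highest genes in WT was the same, while in TCKO Col3a1 (406) and Col5a2 (381) stood above Col6a1 (313).

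Col1a1 (ENSMUSG00000001506, chromosome 11, 94936224 to 94953042 of GRCm38), given per library in the order of replicates 1 to 3, had 191642, 223459 and 177347 counts in WT against 141207, 131158 and 101033 in TCKO. Every TCKO library lay below every WT library, and TCKO replicate 3 was the lowest. This corresponds to 22277 ± 851 CPM for WT and 14549 ± 2811 for TCKO, a log2 fold change of -0.61 ± 0.16 (standard error; adjusted p = 0.038, edgeR). The call was lost without WT replicate 1 (adjusted p = 0.134), WT replicate 2 (0.125), TCKO replicate 1 (0.0911) or TCKO replicate 2 (0.0765), with replicates 1 and 2 summed (0.28), and with a minimum mean of 50 counts (0.0585). Col1a2, the alpha 2 chain that joins Col1a1 in type I collagen, had 75364, 90434 and 68055 counts in WT against 51292, 48280 and 24473 in TCKO. TCKO replicate 3 again lay lowest, well under the other TCKO libraries. Its log2 fold change was -0.85 ± 0.27 with an adjusted p of 0.0676, which misses the threshold, and -0.94 with an adjusted p of 0.018 when the replicate number was a block. This call was lost when replicates 1 and 2 were also summed (adjusted p = 0.107). Without TCKO replicate 3 it was -0.57 (adjusted p = 0.00249).

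Type V collagen starts and limits the fibrils of type I, and its genes moved in both directions. Col5a1 (ENSMUSG00000026837, chromosome 2, 27886425 to 28039514), the alpha 1 chain, had 20573, 24699 and 20189 counts in WT against 13582, 12312 and 11869 in TCKO. The groups were well apart, at 2461 ± 21.9 and 1467 ± 121 CPM, and the log2 fold change was -0.75 ± 0.09 (adjusted p = 0.0019, edgeR). The exons of Col5a1 share 99 and 113 bases with 2 genes on the opposite strand that had mean counts of 42.2 and 37.7. Col5a2, the alpha 2 chain, had 29569, 36102 and 26922 counts in WT against 24300, 22741 and 17614 in TCKO, and the log2 fold change was -0.46 ± 0.15 (adjusted p = 0.0679) and -0.48 (adjusted p = 0.0188) with the replicate block, but not called with the block and replicates 1 and 2 summed (adjusted p = 0.174). Col5a3 (ENSMUSG00000004098, chromosome 9, 20770050 to 20815067), the least abundant chain, was higher in TCKO. Its libraries had 106, 113 and 157 counts in WT against 426, 396 and 299 in TCKO, at 14.3 ± 4.09 and 43.7 ± 8.87 CPM. Its log2 fold change was 1.61 ± 0.22 (adjusted p = 0.0029, edgeR), or 3.06-fold higher. With replicates 1 and 2 summed, the calls of Col5a1 (adjusted p = 0.0815) and Col5a3 (0.0741) were lost, and with the block added Col5a3 was called (0.047) and Col5a1 was not (0.055).

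Col3a1, the chain of type III collagen of soft connective tissue, was looked at after its values were seen. It had 13643, 16327 and 10742 counts in WT against 24090, 22521 and 10933 in TCKO. TCKO replicates 1 and 2 lay above all WT libraries, and TCKO replicate 3, after scaling, lay just below the lowest of them. On the log2 scale the fold change was 0.56 ± 0.29 (adjusted p = 0.223, edgeR), and 0.87 (adjusted p = 0.00159) without TCKO replicate 3. Col27a1, a fibrillar collagen known from cartilage, had a log2 fold change of 0.26 ± 0.11 (adjusted p = 0.159). Col24a1 was not tested, with 1 to 3 counts in WT and 4 to 6 in TCKO.

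**Figure D3:**
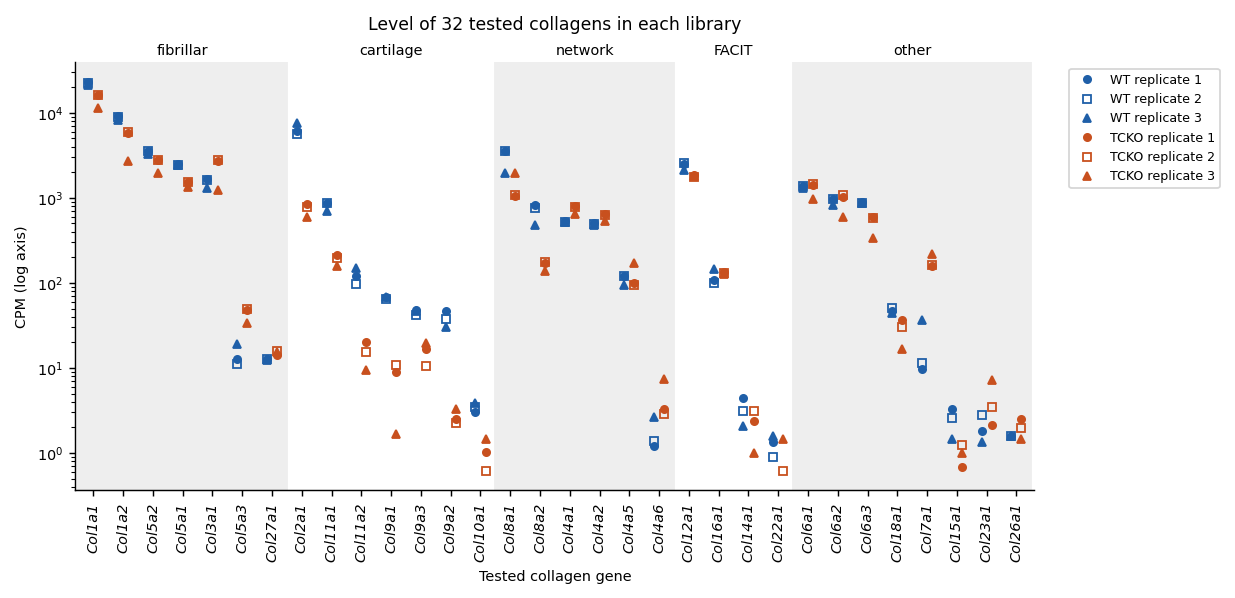
CPM (log axis) of the 32 tested collagens in each of the 6 libraries, ordered by class and then by WT level. Blue marks WT, orange TCKO and the symbol gives the replicate. The 7 cartilage collagens are the class in which every member has all TCKO points below all WT points.

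The cartilage collagens were all lower in TCKO, beside 8.63% of all tested genes, or 3.19% over 2-fold. All 7 members were tested, all 7 passed the test, and all 7 did so over 2-fold, with a median log2 fold change of -3.02 and a range of -3.83 to -1.55. Col2a1 (ENSMUSG00000022483, chromosome 15, 97975602 to 98004695) encodes the only chain of type II collagen, the fibril of cartilage. It had 50301, 57398 and 62192 counts in WT against 7387, 6215 and 5332 in TCKO. The highest TCKO library lay far below the lowest WT library, at group levels of 6436 ± 956 and 736 ± 126 CPM. The log2 fold change was -3.13 ± 0.17 (adjusted p = 9.7e-05, edgeR), or 8.74-fold lower.

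Type XI collagen forms the core of the type II fibril and also takes in the Col2a1 chain. Col11a1 (ENSMUSG00000027966, chromosome 3, 114030540 to 114220718) had 7178, 8716 and 5796 counts in WT against 1882, 1593 and 1406 in TCKO, which gave a log2 fold change of -2.10 ± 0.14 (adjusted p = 0.00013, edgeR). Col11a2 (ENSMUSG00000024330, chromosome 17, 34039437 to 34066685) had 1007, 978 and 1247 counts in WT against 178, 126 and 85 in TCKO, which gave a log2 fold change of -3.02 ± 0.27 (adjusted p = 0.000455). The libraries of the genotypes overlapped for neither gene.

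Type IX collagen decorates the surface of the type II fibril and is built from 1 chain of each of 3 genes. Col9a1 (ENSMUSG00000026147, chromosome 1, 24177610 to 24252684), whose upstream sequence held no CpG, had 559, 656 and 567 counts in WT against 78, 86 and 15 in TCKO. The WT libraries were close together at 67.1 ± 1.67 CPM, while TCKO, at 7.07 ± 4.76 CPM, was spread by its low replicate 3. On the log2 scale the fold change was -3.26 ± 0.43 (adjusted p = 0.00224, edgeR). Col9a2 (ENSMUSG00000028626, chromosome 4, 121039385 to 121055322) had 387, 379 and 252 counts in WT against 22, 18 and 29 in TCKO. It had the lowest log2 fold change of the tested collagens, -3.83 ± 0.22 (adjusted p = 9.81e-05), or 14.3-fold lower. Col9a3 (ENSMUSG00000027570, chromosome 2, 180597790 to 180622189) had 401, 426 and 384 counts in WT against 145, 85 and 175 in TCKO, and the log2 fold change was -1.55 ± 0.20 (adjusted p = 0.00198). Its exons share 234 bases with Tcfl5 on the opposite strand (mean 139 counts), and whether counting used strand is not stated.

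Col10a1 (ENSMUSG00000039462, chromosome 10, 34389981 to 34397085), the marker of hypertrophic chondrocytes, was near the detection limit, and its exons share 18 bases with Nt5dc1 on the opposite strand (mean 52.3 counts). It had 25, 35 and 32 counts in WT against 9, 5 and 13 in TCKO, at 3.46 ± 0.426 and 1.03 ± 0.417 CPM. The log2 fold change was -1.72 ± 0.33 (adjusted p = 0.0108, edgeR). With replicates 1 and 2 summed, the calls of Col9a1 (adjusted p = 0.055) and Col10a1 (0.113) were lost and those of the other 5 were kept, and with the block added Col9a1 was called (0.0196) and Col10a1 was not (0.0511). The 5 kept members held their calls in all 17 alternatives.

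Most chondrocyte markers that are no collagens were lower as well. Of 10 such markers, 9 were tested and 7 were lower in TCKO, all over 2-fold (8.63% and 3.19% of all tested genes), and the list summed to 608 to 654 CPM in the WT libraries and 139 to 161 CPM in TCKO. Acan, the cartilage proteoglycan, had 2335, 2690 and 2943 counts in WT against 493, 379 and 321 in TCKO (log2 fold change -2.70 ± 0.18, adjusted p = 0.000129, edgeR). Sox9, the transcription factor of the chondrocyte lineage, had 942, 1044 and 583 counts in WT against 410, 377 and 383 in TCKO (-1.08 ± 0.17, adjusted p = 0.0047). Epyc (log2 fold change -0.81, adjusted p = 0.301) and Matn3 (0.81, adjusted p = 0.143, at 0.848 CPM in WT and 1.51 CPM in TCKO) were not called. Snorc had 1 count or fewer in every library. The part of these cells in the collagen results was not tested. In these bulk libraries, fewer chondrocytes and less cartilage collagen RNA per cell cannot be told apart.

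Network collagens moved in both directions. Of 6 tested members, the 2 chains of type VIII were lower in TCKO and Col4a1 was higher, beside 8.63% and 9.08% of all tested genes. Col4a3 and Col4a4 were not tested, at 9 counts or fewer per library. Col8a2 (ENSMUSG00000056174, chromosome 4, 126286793 to 126314330) had 6803, 7725 and 3983 counts in WT against 1509, 1417 and 1237 in TCKO. Its log2 fold change was -2.09 ± 0.20 (adjusted p = 0.000677, edgeR), and the call held in all 17 alternatives. Col8a1 (ENSMUSG00000068196, chromosome 16, 57624258 to 57754737) had 29275, 35647 and 16248 counts in WT against 9314, 8689 and 17358 in TCKO. After scaling, replicate 3 of both genotypes stood at nearly the same level, so the genotypes met there. The log2 difference was -1.73 in replicates 1 and 2 and -0.02 in replicate 3 (from CPM plus 2). Over all libraries the log2 fold change of Col8a1 was -1.15 ± 0.30 (adjusted p = 0.036). This call was lost without WT replicate 1 (adjusted p = 0.126), WT replicate 2 (0.127), TCKO replicate 1 (0.125) or TCKO replicate 2 (0.124), and with replicates 1 and 2 summed (0.326).

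Type IV collagen of basement membranes is most often built from Col4a1 and Col4a2, which lie head to head on chromosome 8 with first exons that overlap by 22 bases. Col4a1 (ENSMUSG00000031502, chromosome 8, 11198423 to 11312826) had 4477, 5266 and 4280 counts in WT against 6988, 6237 and 5812 in TCKO, at 527 ± 12.0 and 740 ± 78.3 CPM. On the log2 scale the fold change was 0.49 ± 0.09 (adjusted p = 0.0116, edgeR). It was lost without WT replicate 2 (adjusted p = 0.0599), TCKO replicate 1 (0.057) or TCKO replicate 2 (0.0549) and with replicates 1 and 2 summed (0.198). Col4a2 had 4167, 4920 and 3992 counts in WT against 5616, 5047 and 4794 in TCKO, and its log2 fold change of 0.29 ± 0.09 missed the threshold (adjusted p = 0.0611). With the replicate block it was 0.28 (adjusted p = 0.0387), a call that was lost when replicates 1 and 2 were also summed (adjusted p = 0.303). The pair on the X chromosome, Col4a5 and Col4a6, stood highest in TCKO replicate 3, the library with Xist. Col4a5 had 998, 1197 and 787 counts in WT against 885, 757 and 1531 in TCKO (log2 fold change 0.13 ± 0.22, adjusted p = 0.737). Col4a6 had 10, 14 and 22 counts in WT against 29, 23 and 67 in TCKO (1.39 ± 0.47, adjusted p = 0.0823, 1.34 with 0.0106 under the replicate block, and 1.36 with 0.0533 when replicates 1 and 2 were also summed). The part of this library's Xist signal in these values was not tested. The 7 endothelial markers, which would mark vessels, summed to 3.28 to 4.95 CPM in WT and 3.47 to 6.45 CPM in TCKO.

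FACIT collagens bind to the surface of fibrils. Of 4 tested members outside the cartilage class, Col12a1, a FACIT of dense connective tissue and bone surfaces, was lower in TCKO. Of all tested genes, 8.63% were called lower. The type IX genes, counted with the cartilage collagens, were also called lower. Col12a1 (ENSMUSG00000032332, chromosome 9, 79598991 to 79718831) had 20914, 25943 and 17526 counts in WT against 16474, 14062 and 15997 in TCKO. The groups stood close, at 2409 ± 253 and 1803 ± 67.1 CPM, with a log2 fold change of -0.42 ± 0.10 (adjusted p = 0.03, edgeR). The call was lost without WT replicate 1 (adjusted p = 0.122), WT replicate 2 (0.127), TCKO replicate 1 (0.0895) or TCKO replicate 2 (0.116) and with replicates 1 and 2 summed (0.328). Col16a1, Col14a1 and Col22a1 had log2 fold changes of 0.14, -0.57 and -0.83 without a call, and the latter 2 were at 37 counts or fewer per library. Col19a1 and Col20a1 were not tested.

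Among the other collagens, Col7a1 had the highest log2 fold change of the family. Col7a1 (ENSMUSG00000025650, chromosome 9, 108953586 to 108984875) encodes the chain of anchoring fibrils, best known from the skin. It had 81, 115 and 303 counts in WT against 1400, 1306 and 1971 in TCKO. Replicate 3 was the highest library of each genotype, and the groups did not overlap, at 19.3 ± 15 and 181 ± 34.6 CPM. The log2 fold change was 3.24 ± 0.45 (adjusted p = 0.00306, edgeR), or 9.44-fold higher, and the call was lost with replicates 1 and 2 summed (adjusted p = 0.0626) but kept when the block was added to that fit (0.00909). Of 5 epithelial markers, 4 had 3 counts or fewer in every library. The part of epithelial cells in the Col7a1 values was not tested. Krt14 had 0 counts in every library, the 5 markers summed to 1.69 to 5.37 CPM in WT and 0.00 to 0.228 CPM in TCKO, and Trp63, a regulator of stratified epithelium, was lower in TCKO (30, 52 and 13 counts against 1, 0 and 0).

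Type VI collagen is assembled from the chains of several genes. Of the 3 tested, Col6a3 was lower in TCKO, beside 8.63% of all tested genes, while Col6a1 and Col6a2 were not called. Col6a1 had 11449, 13767 and 10920 counts in WT against 12608, 11713 and 8645 in TCKO, and the log2 fold change was -0.08 ± 0.15 (adjusted p = 0.766, edgeR). Its sign turned without TCKO replicate 3 (0.09, adjusted p = 0.35). Col6a2 had 7975, 9695 and 6893 counts in WT against 9036, 8623 and 5333 in TCKO (-0.04 ± 0.21, adjusted p = 0.927). In replicates 1 and 2 alone it was called higher (0.12, adjusted p = 0.00729), in a fit that called 22.6% of all tested genes higher. That fit rests on libraries whose spread may be technical. Both genes overlapped between the genotypes. Col6a3 (ENSMUSG00000048126, chromosome 1, 90765923 to 90843971), the largest chain, had 7326, 8667 and 7203 counts in WT against 5299, 4723 and 3022 in TCKO. It was lower in TCKO by a log2 fold change of -0.78 ± 0.20 (adjusted p = 0.0337). This call was lost without WT replicate 1 (adjusted p = 0.106), WT replicate 2 (0.102), WT replicate 3 (0.054), TCKO replicate 1 (0.0505) or TCKO replicate 2 (0.0605) and with replicates 1 and 2 summed (0.173). Col6a4, Col6a5 and Col6a6, which lie side by side on chromosome 9, were at 13 counts or fewer.

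Multiplexins are collagens of basement membrane zones, and both members were tested without a call. Col18a1, the source of endostatin, had 392, 510 and 368 counts in WT against 318, 241 and 151 in TCKO. On the log2 scale the fold change was -0.78 ± 0.24 (adjusted p = 0.0577, edgeR), -0.82 (adjusted p = 0.0172) with the replicate block, and -0.94 (adjusted p = 0.0594) when replicates 1 and 2 were also summed. Col15a1 had 27, 26 and 12 counts in WT against 6, 10 and 9 in TCKO (-1.31 ± 0.40, adjusted p = 0.0584). Of the 4 transmembrane collagens only Col23a1 was tested (1.10 ± 0.49, adjusted p = 0.162), and Col26a1 had a log2 fold change of 0.32 (adjusted p = 0.499). Col13a1, Col17a1, Col25a1 and Col28a1 were at 12 counts or fewer in each library.

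Ratios of RPKM between chains of the same type or fibril were compared in 10 pairs. The absolute value of a ratio depends on the lengths used, while the difference between genotypes does not. For 8 pairs the ranges of WT and TCKO did not overlap, each with p = 0.1 in an exact two-sided permutation test, the smallest possible here, and 0.125 after adjustment over the 10 pairs. Col9a3 to Col9a2 stood at 0.832, 0.903 and 1.22 in WT and at 5.29, 3.79 and 4.85 in TCKO, so on these lengths both type IX chains were about equal in WT and unequal in TCKO. Col9a1 to Col9a2 was 0.882, 1.06 and 1.37 in WT and 2.17, 2.92 and 0.316 in TCKO, and TCKO replicate 3 alone lay below the WT values (p = 1, exact permutation test). Col11a1 to Col2a1 was 0.0937 ± 0.0229 in WT and 0.187 ± 0.00346 in TCKO (SD, n = 3). Col3a1 to Col1a1 was 0.0456 ± 0.0045 and 0.1 ± 0.0243.

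Col1a1 to Col1a2 was 4.81, 4.68 and 4.93 in WT and 5.21, 5.14 and 7.82 in TCKO, with means of 4.81 and 6.06, and the 2 TCKO libraries other than replicate 3 lay close to WT. With coding transcript lengths the means were 2.29 and 2.89. Col4a1 to Col4a2 was very even within each genotype, at 0.951 ± 0.00181 and 1.09 ± 0.0147, a log2 difference of 0.20. Col5a1 to Col5a2 was 0.796 ± 0.0393 and 0.663 ± 0.0806. Col6a3 to Col6a1 was 0.235 ± 0.00559 and 0.143 ± 0.0135, whereas Col6a1 to Col6a2 stood at 2.81 ± 0.172 and 2.77 ± 0.270 with overlapping ranges (p = 0.7, exact permutation test). Col8a1 to Col8a2 was 2.47, 2.64 and 2.34 in WT and 3.54, 3.51 and 8.04 in TCKO.

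**Figure D4:**
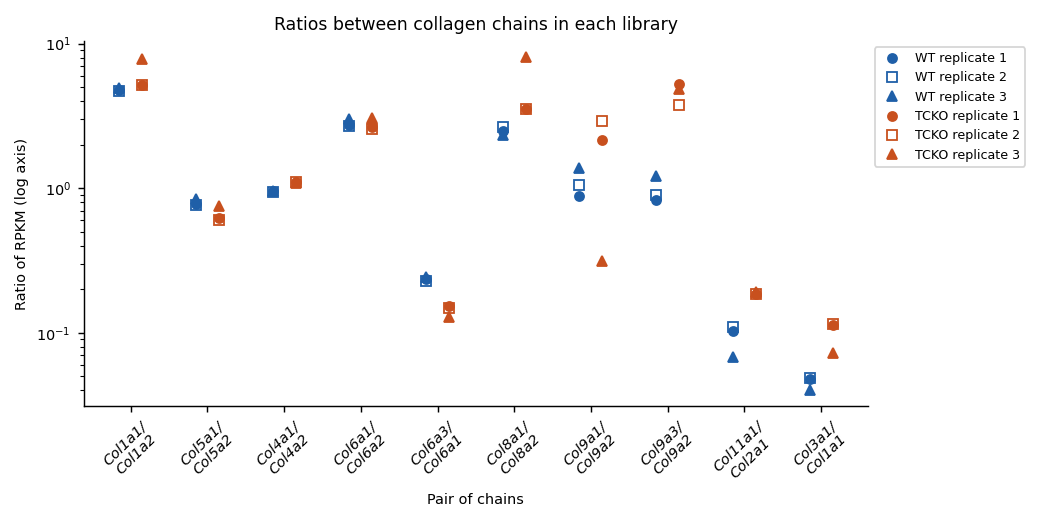
Ratio of RPKM (log axis) between 10 pairs of collagen chains in each library, with WT in blue, TCKO in orange and the symbol giving the replicate. Col9a3 to Col9a2 lies at 0.832 to 1.22 in WT and 3.79 to 5.29 in TCKO, and Col6a1 to Col6a2 overlaps between the genotypes.

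Differences by replicate number showed which members rest on which libraries. In replicates 1 and 2 and in replicate 3 alike, all 7 cartilage collagens lay below 0, from -3.33 to -0.90 and from -4.26 to -0.76 (log2 of CPM plus 2). Col7a1 stood at 3.69 and 2.53 and Col5a3 at 1.86 and 0.76. Col1a1 (-0.49 and -0.92), Col1a2 (-0.61 and -1.59) and Col6a3 (-0.55 and -1.36) were further below 0 in replicate 3. Opposite signs were found for 6 of the 32 tested collagens: Col3a1 (0.76 and -0.09), Col4a5 (-0.30 and 0.83), Col6a1 (0.07 and -0.45), Col6a2 (0.12 and -0.48), Col16a1 (0.34 and -0.20) and Col26a1 (0.24 and -0.05).

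**Figure D5:**
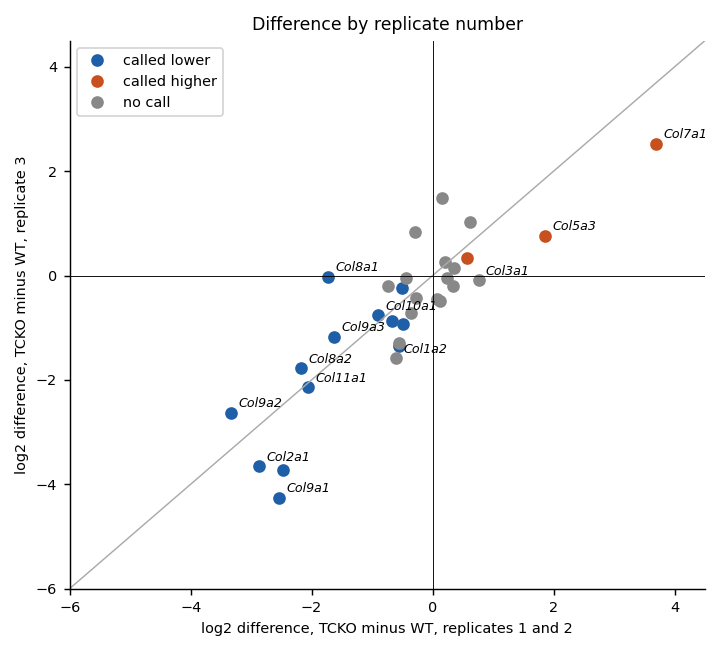
Log2 difference of TCKO minus WT (from CPM plus 2) in the mean of replicates 1 and 2 (horizontal) and in replicate 3 (vertical) for the 32 tested collagens, with colours giving the call and the grey line marking equal values. Col8a1 lies at -1.73 and -0.02, and Col7a1 at 3.69 and 2.53.

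Procollagen chains are hydroxylated on proline and lysine in the endoplasmic reticulum, folded with dedicated chaperones, exported, trimmed at both ends and cross-linked outside the cell. Of 13 genes for prolyl and lysyl hydroxylation, all were tested, 5 were lower in TCKO and 0 were higher, beside the background of 8.63% and 9.08%. P4ha3, a prolyl 4-hydroxylase subunit, had 1130, 1403 and 1218 counts in WT against 623, 618 and 901 in TCKO (log2 fold change -0.77 ± 0.13, adjusted p = 0.00647, edgeR). P3h4 (-0.66 ± 0.08), P3h3 (-0.43 ± 0.07), Plod3 (-0.39 ± 0.07) and Crtap (-0.33 ± 0.08) were also lower. None of the 5 changed over 2-fold. Of 10 tested genes for chaperones, export and glycosylation, 1 was lower and 0 higher, beside the same background. That gene was Sparc, a collagen-binding matrix protein of bone, with 83826, 107147 and 72597 counts in WT against 46355, 42877 and 41753 in TCKO (-0.95 ± 0.12, adjusted p = 0.00198). Serpinh1, the collagen chaperone, was not called (-0.04 ± 0.10, adjusted p = 0.792).

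Genes of propeptide removal and cross-linking moved both ways, beside 8.63% of all tested genes called lower and 9.08% called higher. Of 6 tested propeptide genes, Adamts2, the main N-propeptidase, was lower (393, 460 and 292 counts in WT against 217, 187 and 84 in TCKO, log2 fold change -1.17 ± 0.31, adjusted p = 0.0377, edgeR). Its relative Adamts14 was higher (183, 190 and 227 against 479, 423 and 438 counts, log2 fold change 1.19 ± 0.14, adjusted p = 0.00129). Tll1, a C-propeptidase, was higher by 1.48 ± 0.22 (adjusted p = 0.00397). Of 5 cross-linking enzymes, Loxl4 was lower (-1.58 ± 0.16, adjusted p = 0.000677), Loxl1 (0.84 ± 0.13) and Loxl3 (0.79 ± 0.09) were higher, and Lox and Loxl2 were not called (-0.49 and 0.43).

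Cells read collagen through integrins and DDR kinases. Of 7 tested receptor genes, 4 were lower in TCKO and 1 was higher, beside 8.63% and 9.08% of all tested genes. Itga11, the alpha subunit for fibrillar collagen on mesenchymal cells, had 1920, 2437 and 2003 counts in WT against 568, 530 and 170 in TCKO (log2 fold change -2.26 ± 0.39, adjusted p = 0.00696, edgeR). Itga1 (-1.59 ± 0.24, adjusted p = 0.00451), Itga10 (-0.93 ± 0.16, adjusted p = 0.0071) and Ddr2 (-0.42 ± 0.10, adjusted p = 0.0256) were lower. The shared beta subunit Itgb1 was higher (15851, 19727 and 17939 counts against 24659, 22440 and 28365, 0.54 ± 0.10, adjusted p = 0.01).

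The remaining marker lists were read for what else the preparation held, beside 8.63% of all tested genes called lower and 9.08% called higher. Of 5 tested osteoblast markers, 3 were lower in TCKO, among them Alpl (143, 163 and 475 counts in WT against 22, 11 and 34 in TCKO, log2 fold change -3.54 ± 0.62, adjusted p = 0.00743, edgeR) and Runx2 (-0.44 ± 0.07, adjusted p = 0.00397), and the list summed to 285 to 497 CPM in WT and 144 to 218 CPM in TCKO. Of 6 haematopoietic markers 3 were lower, with sums of 389 to 695 CPM in WT and 156 to 526 CPM in TCKO. The 3 tendon markers, of which Tnmd was lower, summed to 140 to 213 and 92.9 to 120 CPM. The 4 Schwann cell markers, of which S100b was lower, summed to 18 to 24.4 and 3.36 to 3.60 CPM. The 6 muscle markers, of which Acta1 was higher, summed to 6.67 to 21.3 and 30.1 to 78.4 CPM. The part of these cells in the collagen values was not tested.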

How the data were processed

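RNA-seq libraries of 6 samples (WT and TCKO, 3 each) were grouped and numbered by their titles. The authors aligned the reads with STAR 2.7.0e to GRCm38 (Ensembl release 99) and counted them per gene with featureCounts 2.0.0, and the deposited values are raw counts without normalization. Strand use in counting is not given in the sources used here. Symbols came from a table of gene names and matched 55144 identifiers (99.4%). All columns of sample values were assigned to a sample (0 were left over). Total counts were 8019999 to 10177214 per library.

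Genotypes were compared on the counts by edgeR 4.0.16 under R 4.3.3 (filterByExpr, TMM, glmQLFit and glmQLFTest over all 6 libraries, no covariates), with Benjamini-Hochberg adjustment over 13826 genes and a threshold of 0.05. Standard errors came from the F statistic. The fits were tested on simulated data. Ratios and shares were compared by exact permutation over libraries. Named were all collagens with an adjusted p under 0.05, 5 marker collagens (Col1a1, Col1a2, Col2a1, Col9a2 and Col10a1), the 5 of highest mean RPKM, and up to 6 called genes per pathway list. Collagens outside this rule are named because a count of members turns on them. The collagen classes and the lists for collagen pathways and cell types, like the tests, were chosen with earlier results of these data known.

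Same-numbered libraries deviated together from their group means (correlations over genes, which are not independent, of 0.204, 0.214 and 0.347). All were over 0.1, so a fit with the replicate number as a block was run as an alternative. The main fit had no block. Replicates 1 and 2 correlated as well across numbers (0.225 and 0.188), so the values set replicate 3 apart and do not match 1 with 1 or 2 with 2. Whether it marks a shared day or litter is not given. Alternatives were RLE and upper-quartile factors, TMM without collagens, a minimum mean of 50 counts, no filter other than 1 count, DESeq2 1.42.0 without and with an RPKM minimum of 0.24, the replicate block, replicates 1 and 2 summed without and with the block, each library left out and, chosen after seeing the data, replicates 1 and 2 only. Replicates 1 and 2 differed by more than counting noise (chi-square per degree of freedom 1.69 and 2.04) and were kept as separate libraries.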

Additional observations from a re-analysis of the deposited data

How the results depend on the processing

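Leaving out single libraries, the count of collagens lower in TCKO ranged from 9 to 16 and that of those higher from 2 to 5. In these fits 3.98% to 10.9% of all tested genes were called lower and 4.35% to 11.7% higher. Against 3 higher collagens (9.08% of all tested genes), DESeq2 without and with the RPKM minimum gave 5, beside 9.11% and 7.34% of all tested genes. The replicate block gave 5, beside 12.0%, and replicates 1 and 2 alone gave 8, beside 22.6%. With replicates 1 and 2 summed, 6 were lower and 0 higher, beside 1.22% and 1.57% of all tested genes. Also 0 were higher over 2-fold (edgeR, 3 higher at an unadjusted p under 0.05). With the block added 7 were lower and 2 higher, both over 2-fold, beside 4.09% and 4.22% of all tested genes at any fold. The cause of these changes was not tested, and the summed fits also have fewer libraries. The replicate block changed no other call than those of Col1a2, Col5a2, Col18a1, Col4a2 and Col4a6, and none of these was called with the block and summed replicates. The log2 fold change of Col6a1, -0.08 over all libraries, was 0.07 in replicates 1 and 2 alone and ranged from -0.18 to 0.09 with a library left out. Every other collagen named by the rule kept its direction in all alternatives. Col2a1, Col8a2, Col9a2, Col9a3, Col11a1 and Col11a2 kept their calls in all 17 alternatives. With 3 libraries per genotype no exact test of a share or ratio can go below 0.1, and the depth limits what can be said of collagens with few counts.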
